A study of Mus musculus with 2 samples.

Results

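The let-7 genes whose mature form is made from a single locus, Mirlet7b, Mirlet7d, Mirlet7e, Mirlet7g, Mirlet7i and Mir98, were measured by microRNA sequencing (microRNA, miRNA) in adrenal glands of newborn mice. These 6 genes were chosen by name, though with earlier results of these data known, and are 6 of the 2202 miRNA genes in the deposited tables. The series held 1 group of 2 libraries, from B6CASTF1/J males on postnatal day 4, which are F1 hybrids of C57BL/6J, a common laboratory strain, with CAST/EiJ, an inbred strain of wild origin. Per the labels the libraries were biological replicates 1 and 2, from males numbered 3 and 4, and inserts were under 30 nucleotides long. No genotype or treatment differed between them, so the values below describe levels and the spread between 2 libraries. Both libraries carry the same donor label, so how far a difference comes from the animal, the dissection or the library cannot be told apart.

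The let-7 miRNAs form one of the most conserved miRNA families of animals, first known as timing genes in the worm Caenorhabditis elegans. Their mature strand is loaded into an Argonaute protein and guides it to messenger RNAs that pair with the seed, among them those of growth and stem cell genes such as Hmga2 and Lin28b. The RNA-binding protein LIN28 blocks the maturation of many let-7 precursors in early embryos, and mature let-7 levels rise as tissues differentiate. The adrenal cortex makes steroid hormones, and the chromaffin cells of the medulla inside it make adrenaline.

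The mature forms are shown first because the family differs by a few bases outside the seed, and those bases decide which locus a read can be given to. All 6 members were found by gene name among the RefSeq sequences on build GRCm38.p6, where mm10 is the same assembly. Capitals mark the seed (bases 2 to 8, counted from the 5′ end).
let-7g-5p: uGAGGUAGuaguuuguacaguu
let-7i-5p: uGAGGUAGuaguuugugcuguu
let-7d-5p: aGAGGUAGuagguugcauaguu
let-7b-5p: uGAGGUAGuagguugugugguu
let-7e-5p: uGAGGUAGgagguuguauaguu
miR-98-5p: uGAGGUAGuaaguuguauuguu
The family members made from more than 1 locus are shown for comparison.
let-7a-5p: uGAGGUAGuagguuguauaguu
let-7c-5p: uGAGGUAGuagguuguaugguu
let-7f-5p: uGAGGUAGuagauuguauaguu
The seed was the same in all 6 members, GAGGUAG, and it stood in 11 of 1679 mature miRNA names in the table. Apart from the 9 above, these were let-7k and miR-1961.

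Each of the 6 mature forms was held by exactly 1 of 1005 listed hairpins, whereas let-7a-5p, let-7c-5p and let-7f-5p were each held by 2 hairpins. The mature form from the opposite arm was also held by 1 hairpin for each of the 6 members. Among themselves the members differed by 2 to 6 bases of 22, with a median of 4 over 15 pairs. The closest pair was let-7g and let-7i, with 2 mismatches, and the most distant was let-7d and let-7i, with 6. From let-7a, which is made from several loci, let-7e differed by the single substitution U9G, let-7b by A17G and A19G, let-7d by U1A and U16C, let-7g by G12U and U18C, and miR-98 by G11A and A19U. The substitutions G12U, A17G, U18C and A19U set let-7i apart from let-7a. Between let-7b and let-7c there was 1 mismatch.

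**Figure D1:**
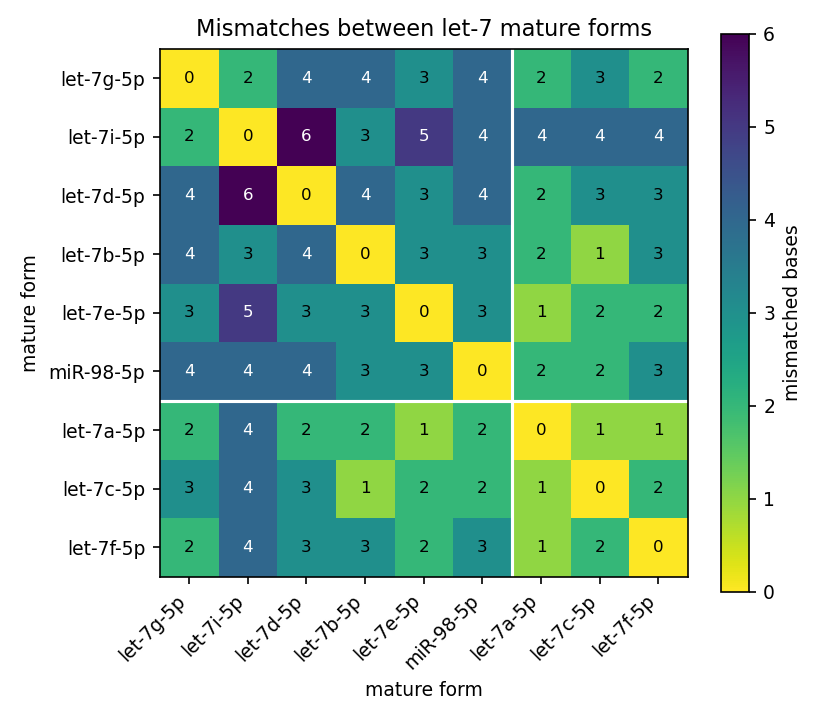
Number of mismatched bases, out of 22, between each pair of let-7 mature forms (both axes, colour and printed number); lines separate the 6 single-locus forms (top and left) from let-7a, let-7c and let-7f. let-7e and let-7b each lie 1 mismatch from a form made from several loci, while the single-locus forms lie 2 to 6 apart.

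A read therefore needs a minimum length to be given to a member. Among the 1005 listed hairpins, a read from the 5′ end of the mature form matched 1 hairpin only from 9 bases for let-7d. The length was 11 bases for miR-98, and 17 bases for let-7b, let-7e, let-7g and let-7i. The rest of the genome was not searched, so alignment to the genome can need longer reads. The shared start of let-7e was with let-7k, whose gene Mir7k had 0 counts in both libraries. A let-7a read with an error at position 9 can carry the let-7e sequence, and let-7c and let-7b are also 1 base apart. The tables hold no base-level data, so the size of such an exchange was not measured, and the levels of let-7e and let-7b are uncertain to that extent.

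Levels are given as CPM, counts scaled to 1000000 sense-strand counts of miRNA genes in a library. Those counts numbered 3961630 in replicate 1 and 1686822 in replicate 2, and shares and ranks are among them only. They leave out reads that aligned to several loci, 3176275 and 1684373 in replicates 1 and 2. Forms of miRNAs made from several loci can thus be undercounted. Together the 6 members held 176038 CPM in replicate 1 and 192722 CPM in replicate 2, or 17.6% of counts (95% exact binomial interval 17.57 to 17.64%) and 19.3% (19.21 to 19.33%). Their summed level was 184380 ± 11798 CPM (SD, n = 2). Intervals cover counting error within a library only, and they treat reads as independent, which sequencing reads are not. Because these are whole glands, fewer cells that express a miRNA and less of it per cell cannot be told apart.

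Mirlet7g and Mirlet7i stood far above the other members. Mirlet7g had 65632 CPM in replicate 1 and 71157 CPM in replicate 2. By assigned counts this ranked it the first and the second of all miRNA genes in those libraries. Mirlet7i had 63586 CPM in replicate 1 and 62203 CPM in replicate 2, at ranks 4 and 3. The levels of these 2 genes did not overlap, but their means of 68395 ± 3907 and 62895 ± 977 CPM (SD, n = 2 each) lay close, and within a library Mirlet7g was 1.03 and 1.14 times Mirlet7i. Together they gave 73.4% of the members' counts in replicate 1 and 69.2% in replicate 2.

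Mirlet7d and Mirlet7b formed a middle pair. Mirlet7d had 16940 CPM in replicate 1 and 23954 CPM in replicate 2 (mean 20447 ± 4960, SD, n = 2), and Mirlet7b had 18019 and 18895 CPM in the same libraries (mean 18457 ± 620). The ranges overlapped and the order was not the same in both libraries: Mirlet7d was 0.94 times Mirlet7b in replicate 1 and 1.27 times in replicate 2. Mirlet7i was 3.75 and 2.60 times Mirlet7d, so the step between these pairs was larger than the spread of either gene.

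Mirlet7e and Mir98 were the lowest. Mirlet7e had 6696 CPM in replicate 1 and 8351 CPM in replicate 2 (mean 7523 ± 1170, SD, n = 2). Mir98, which carries the let-7 seed under another name, had 5166 and 8162 CPM in the same libraries (mean 6664 ± 2118). Their ranges overlapped, although Mirlet7e was the higher in both libraries, by 1.30 and 1.02 times. Mir98 was still the rank 36 and rank 28 gene of its libraries, and Mirlet7g exceeded it 12.7 and 8.72 times. With 2 libraries no test was run on this order, in which the genes are paired by library. Even with that pairing ignored, an exact two-sided permutation test of 2 values against 2 cannot give a p below 0.333.

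**Figure D2:**
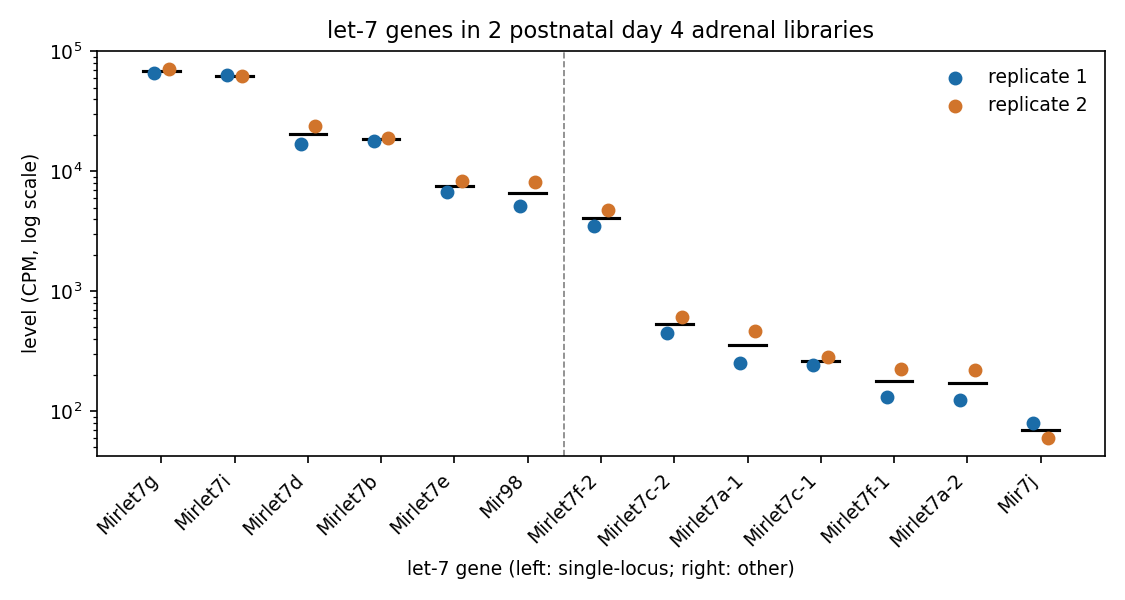
Level in CPM (vertical axis, log scale) of the let-7 genes (horizontal axis) in replicate 1 and replicate 2 (points) with their mean (black line); the 6 single-locus genes are left of the dashed line, the others right of it, without Mir7k, which had no count. The single-locus genes lie between 5166 and 71157 CPM, and Mirlet7f-2 is the highest of the rest at 3512 and 4734 CPM. Reads that aligned to several loci are not counted, and let-7a-5p, let-7c-5p and let-7f-5p are each held by 2 hairpins.

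The 6 members made up nearly all of the let-7 counts that were assigned to a gene: 97.3% of 716387 counts of the 14-gene family in replicate 1 and 96.7% of 336233 in replicate 2 (97.0% ± 0.469, SD, n = 2). Of the 8 other genes, Mirlet7f-2 had 3512 and 4734 CPM, Mirlet7c-2 had 447 and 615 CPM and Mirlet7a-1 had 252 and 467 CPM, in replicates 1 and 2. Mirlet7c-1, Mirlet7f-1, Mirlet7a-2 and Mir7j, the gene of let-7j, lay between 60.5 and 283 CPM in either library. This share is no measure of which mature form was more abundant in the gland. Reads that aligned to several loci were set aside in the deposited tables, 3176275 in replicate 1 and 1684373 in replicate 2, and full-length let-7a-5p, let-7c-5p and let-7f-5p reads match 2 hairpins each. The set-aside reads of all kinds were 4.55 and 5.18 times the members' own counts, and their let-7 part is not known.

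Between the libraries, none of the 6 members differed by 2-fold. Their log2 ratios of replicate 1 over replicate 2, on CPM + 0.5, ran from -0.66 for Mir98 to 0.03 for Mirlet7i, with a median of -0.22 and a median size of 0.22. Of the 404 miRNA genes that reached 10 counts in 1 or both libraries, 21.5% passed 2-fold in either direction, the median ratio was 0.05 and the median size was 0.50. Among the 92 genes with a mean of at least 1000 CPM, a range that holds all 6 members, 15.2% passed 2-fold and the median size was 0.44. At these rates 0 of 6 is near what the background gives for a set of this size, and the differences have no replicate check.

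On this scaling Mirlet7i had the smallest coefficient of variation between the libraries, 1.55%. Next came Mirlet7b with 3.36% and Mirlet7g with 5.71%, then Mirlet7e with 15.6%, Mirlet7d with 24.3% and Mir98 with 31.8%. Mir98 was 0.633 times as high in replicate 1 as in replicate 2 (95% exact interval of the ratio, counting error only, 0.619 to 0.647), and Mirlet7d 0.707 times (0.698 to 0.716). The corresponding ratio was 0.802 for Mirlet7e, 0.922 for Mirlet7g, 0.954 for Mirlet7b and 1.02 for Mirlet7i. Thus 5 of 6 members were lower in replicate 1, against 45.8% of the 404 genes, but the direction held only for Mir98 and Mirlet7d under each scaling tried. TMM scaling (trimmed mean of M-values, edgeR) shifted log2 ratios by 0.107. After it the log2 ratio was -0.01 for Mirlet7g, the smallest in size, 0.04 for Mirlet7b, 0.14 for Mirlet7i, -0.21 for Mirlet7e, -0.39 for Mirlet7d and -0.55 for Mir98.

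**Figure D3:**
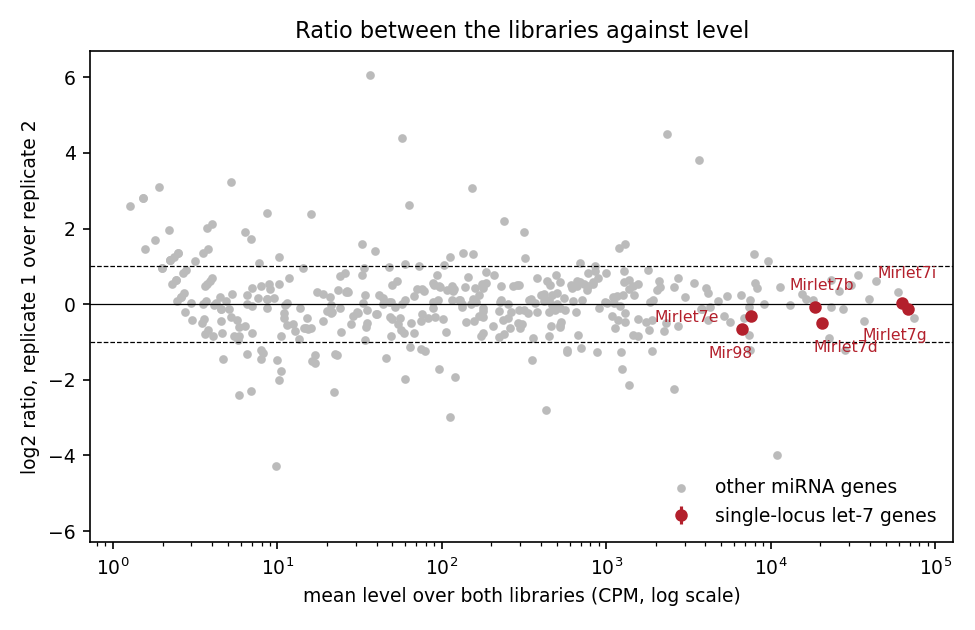
Log2 ratio of replicate 1 over replicate 2 (vertical axis) against mean level (horizontal axis, CPM, log scale) for the 404 miRNA genes that reached 10 counts in 1 or both libraries; red points are the 6 single-locus let-7 genes with exact 95% counting intervals, most smaller than the point, and dashed lines mark 2-fold. The 6 genes lie between -0.66 and 0.03, inside the lines.

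The libraries differed more in miRNAs of other tissues. Mir122 of hepatocytes had 1299 CPM in replicate 1 and 20602 CPM in replicate 2. The 5 striated muscle markers summed to 1131 and 2648 CPM, of which Mir206 alone gave 1130 and 2646 CPM. Mir1a-1, Mir1a-2 and Mir133a-1 had at most 0.505 CPM in replicate 1 and 1.19 CPM in replicate 2, below 3 counts. Mir133a-2 was at 0 in both. For all these markers, too, reads that aligned to several loci are not counted. The 3 red blood cell markers summed to 7248 and 595 CPM, where Mir451a and Mir144 were higher in replicate 1 and Mir486 was lower, at 12.4 and 19.6 CPM. The 5 epithelial markers, all higher in replicate 1, summed to 741 and 279 CPM. Leukocyte markers summed to 740 and 1269 CPM, with Mir223 and Mir142 lower in replicate 1 and Mir150 at 133 and 131 CPM. Kidney markers summed to 169 and 378 CPM, with 3 of 4 lower in replicate 1 and Mir194-1 higher, at 9.84 and 0.593 CPM. The 0.593 CPM lies below the 1.78 CPM that 3 counts make in replicate 2. None of the red blood cell, epithelial, leukocyte and kidney markers was at 0 in both libraries. Neuroendocrine markers, the nearest of these lists to the adrenal medulla, summed to 36299 and 46670 CPM, which was mostly Mir375. In that list Mir375 (log2 ratio -0.45) and Mir7-1 (-0.03) were lower in replicate 1, and Mir7b (0.28) and Mir7-2 (1.03) were higher; Mir7-1 changes sign with the TMM shift given above, as does Mir204 of the kidney list. The endothelial Mir126a gave 65222 and 83391 CPM, and Mir143 with Mir145a of stroma and smooth muscle gave 42282 and 38445 CPM. With the liver, red blood cell and striated muscle markers taken out of the library totals, the log2 ratio was -0.68 for Mir98 and -0.52 for Mirlet7d, and the summed level of the members was 187594 ± 13910 CPM. Taking markers out of a total rescales all genes of that library alike and removes no let-7 reads. The part of these cell types in the members' levels was therefore not tested.

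By position, the members fall into solitary and clustered genes. Coordinates are on mm10 and counted from 1, and all 14 family hairpins had the same coordinates in RefSeq as in the GENCODE M21 annotation. Mirlet7g (ENSMUSG00000065440.1; chromosome 9, 106178840 to 106178927, plus strand) lies in an intron of Wdr82, which encodes a subunit of histone H3K4 methyltransferase complexes. Mirlet7i (ENSMUSG00000065406.3; chromosome 10, 122985640 to 122985724, minus strand) overlaps an exon of the transcribed pseudogene D630033A02Rik. Neither has another miRNA gene on its strand within 10 kb, and these solitary genes were the most abundant members.

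The other 4 lie beside other miRNA genes. Mirlet7b (ENSMUSG00000065564.1; chromosome 15, 85707319 to 85707403, plus strand) follows Mirlet7c-2 by 622 bases and overlaps an exon of the noncoding gene Lncppara. It made up 97.6% of the pair's counts in replicate 1 and 96.8% in replicate 2. Mirlet7d (ENSMUSG00000065453.1; chromosome 13, 48536012 to 48536114, minus strand) follows Mirlet7a-1 and Mirlet7f-1 and overlaps an exon of the noncoding gene 6720427I07Rik. It made up 97.8% of that cluster's counts in replicate 1 and 97.2% in replicate 2. In both clusters the neighbours' 5′ mature forms are held by 2 hairpins, so these shares carry the same limit as the family share.

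All 3 genes of the chromosome 13 cluster were lower in replicate 1. So were 11 of the 13 let-7 family genes that reached 10 counts in either library. Over all 404 such miRNA genes the share was 45.8%. The count of 11 depends on the scaling. Mirlet7b was not lower in replicate 1 under TMM scaling (log2 ratio 0.04). Per 1000000 of all reads Mirlet7b (0.32), Mirlet7g (0.27) and Mirlet7e (0.07) were not lower there either. Mirlet7d had a log2 ratio of -0.50 (counting interval -0.52 to -0.48), Mirlet7a-1 of -0.89 (-1.02 to -0.75) and Mirlet7f-1 of -0.77 (-0.96 to -0.58). The same direction was seen on chromosome X, where Mir98 (ENSMUSG00000065536.2; 151913214 to 151913321, plus strand) follows Mirlet7f-2 by 786 bases in an intron of Huwe1, a ubiquitin ligase gene. Mir98 had a log2 ratio of -0.66 and Mirlet7f-2 of -0.43, and Mir98 was 1.47 and 1.72 times Mirlet7f-2 in replicates 1 and 2. This ratio has the same limit, since let-7f-5p is held by 2 hairpins.

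Mirlet7e (ENSMUSG00000105758.1; chromosome 17, 17830352 to 17830444, plus strand) sits in an intron of Spaca6, a gene needed for sperm and egg fusion, 95 bases after Mir99b and 368 bases before Mir125a. In replicate 1 Mir99b was at 11334 CPM, Mirlet7e at 6696 CPM and Mir125a at 4721 CPM. In replicate 2 they were at 4490, 8351 and 6588 CPM, in the same order of genes. Mirlet7e thus stood at 0.591 times Mir99b in replicate 1 and 1.86 times in replicate 2, while its ratio to Mir125a was 1.42 and 1.27. Mir99b was 2.52-fold higher in replicate 1 (counting interval 2.46 to 2.59), whereas Mirlet7e and Mir125a were both lower there, with log2 ratios of -0.32 and -0.48. Per 1000000 of all reads of a library, summary rows included, the log2 ratio of Mirlet7e was 0.07. Its share of the cluster's counts was 29.4% in replicate 1 and 43.0% in replicate 2, the largest spread of the 4 clusters.

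**Figure D4:**
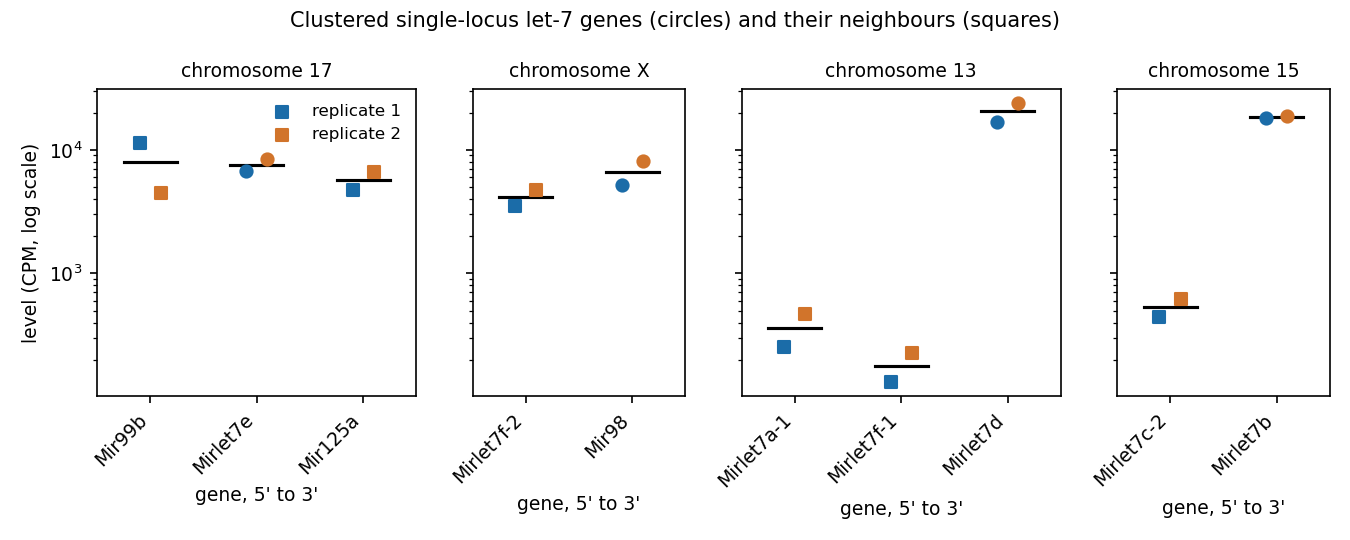
Level in CPM (vertical axis, log scale) of the 4 clustered single-locus let-7 genes (circles) and the miRNA genes beside them (squares) in replicate 1 and replicate 2, with the mean as a line; genes run 5′ to 3′ along their strand. Mir99b is higher in replicate 1, at 11334 against 4490 CPM, and the other genes shown are lower there (Mirlet7b flips under TMM scaling).

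Strand mattered for 1 member. Gm25927, a predicted miRNA gene, overlaps Mirlet7e on the other strand. In the deposited column that counts either strand Mirlet7e had 0 counts in both libraries, while the sense-strand column gave it 26527 counts in replicate 1 and 14086 in replicate 2. Gm25927 itself had 0 sense-strand counts in both. The other 5 members had the same counts in both columns to within 6 reads.

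The stretch between the 2 mature arms, which becomes the terminal loop of the precursor, was compared in 5 members, without Mir98, because LIN28 binds the bases GGAG there. The search covered the hairpin's own strand only, since the precursor is RNA. Capitals mark GGAG.
Mirlet7g: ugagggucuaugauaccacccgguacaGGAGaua
Mirlet7i: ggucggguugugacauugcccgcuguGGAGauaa
Mirlet7d: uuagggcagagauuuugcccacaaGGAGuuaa
Mirlet7e: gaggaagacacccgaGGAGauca
Mirlet7b: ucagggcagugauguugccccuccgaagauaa
The motif was present in 4 of these 5 members, each time 3 or 4 bases before the 3′ arm, and not in Mirlet7b. It was also present in 4 of the 5 other let-7 hairpins with both arms listed, Mirlet7a-1, Mirlet7c-1, Mirlet7f-1 and Mirlet7f-2, 4 bases before the 3′ arm, and not in Mirlet7c-2. It stood between the arms of 8.07% of the 644 hairpins with both arms listed. Of the 52 whose stretch had 23 to 34 bases, as those of the 5 members had, 25.0% held it. Both rates include let-7 hairpins. The 13 with the motif among the 52 include these 4 members and the 4 other let-7 hairpins named above. The 4 members with the motif ranged from 7523 to 68395 CPM on average, and Mirlet7b had 18457 CPM.

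Among 327 miRNA genes outside the family with at least 10 counts in both libraries, the genes whose pattern was most like each member were found by the distance of log2(CPM + 0.5) over the 2 libraries. Mirlet7g was nearest to Mir126a (distance 0.23) and Mirlet7i to Mir10a (0.24). Mirlet7b was nearest to Mir139 (0.13) and Mir127 (0.30), and Mirlet7d to Mir10b (0.31) and Mir99a (0.43). Mirlet7e was nearest to Mir431 (0.18) and Mir351 (0.20), and Mir98 to Mir22 (0.21) and Mir351 (0.23). For Mirlet7g the next was Mir10a (0.43), and for Mirlet7i it was Mir126a (0.42). With 2 libraries the distance is mainly one of level.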

How the data were processed

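MicroRNA sequencing of total RNA from 2 adrenal libraries was analysed. The authors deposited 1 table of read counts per miRNA gene for each library, made on mm10 with annotation M21, per the deposited file lists. The aligner, trimming and read filters are not given in the sources used here. Each table has an either-strand column and 2 single-strand columns; the single-strand column with more counts was used as the sense strand. The 4 summary rows (unaligned, multiply aligned, outside miRNA genes, ambiguous) were left out of library totals; they held 66.3% of the 11770895 reads of replicate 1 and 74.3% of the 6557080 reads of replicate 2. All 2202 identifiers matched GENCODE M21. A count belongs to a precursor gene, so its arms are not told apart.

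CPM, exact Clopper-Pearson intervals and exact conditional intervals of count ratios were computed in Python 3.11.15 with scipy 1.17.1, and the ratio calculation was tested on simulated data. No p-value was computed, since there is 1 group. TMM factors came from edgeR 4.0.16 and other size factors from DESeq2 1.42.0. Neighbours were miRNA genes on the same strand within 10 kb. Named genes were the members, the other let-7 genes, those neighbours, any miRNA gene overlapping a member on the other strand, the marker lists, and the 2 nearest genes in pattern per member. Members and lists were chosen with earlier results of these data known. The stretch between the arms of the Mir98 hairpin is not reported here.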

Additional observations from a re-analysis of the deposited data

Results flagged for a closer look

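Reads on the strand opposite to a member were not used in the report. Mirlet7b had 6 such counts in replicate 1, above the 3 counts that a count of 0 allows, and 1 in replicate 2, against 71383 and 31872 counts on its own strand. No other member had more than 1.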

How the results depend on the processing

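No paired comparison of conditions was possible because there is 1 group. The summed level of the members was 201999 CPM in the either-strand column, where Mirlet7e has no counts and the total is smaller, and 54413 per 1000000 of all reads; with either library left out it was 176038 to 192722 CPM. TMM and DESeq2 scaling kept the mean within the spread but lowered its SD to 2125 and 2110 CPM. Their share of family counts was 96.7 to 97.3% with either library left out. Genes past 2-fold numbered 57 with CPM + 5, 248 of 757 with at least 1 count in either library, 167 at 1.5-fold and 14 of 92 at 1000 CPM or more, against 87; the last limit and the removal of tissue markers were chosen after seeing the data. At 1.5-fold 1 member, Mir98, was past the limit; in the other alternatives 0 were. Of 35 alternatives for single ratios 24 moved beyond the counting interval. Signs changed for Mirlet7b under TMM and DESeq2 scaling (both 0.04), and per 1000000 of all reads for Mirlet7b (0.32), Mirlet7g (0.27) and Mirlet7e (0.07). With 2 libraries, leaving out either shows nothing about stability.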
